A study of Rattus norvegicus with 28 samples.

Results

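Tmem255b, Zfp354a, Anxa13 and Fam117b are 4 little studied rat genes that were picked because their RNA was strongly lower in primary hepatocytes treated with the upper dose of a dioxin or furan. Their probes were found among the 41012 non-control probes of the array by gene identifier or accession, so that older names also counted, and each gene had 1 probe. They are 4 of the 37806 gene names on the array. Zfp354a was listed as Znf354a and matched by accession. Tmem255b was listed as LOC290877, Anxa13 as LOC362915 and Fam117b as LOC363236, and these were matched by gene identifier. The ratios at the 3 upper doses chose the genes, and they are given as a description with no test. The lower doses, the untreated cells and the levels in DMSO did not choose them.

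Hepatocytes of rats A and B, 2 adult females of the Sprague-Dawley strain, were kept on Matrigel with insulin, transferrin, selenium and 0.1 uM dexamethasone for 48 h. They then stayed for 24 h in one of the test conditions: TCDD (2,3,7,8-tetrachlorodibenzo-p-dioxin) at 0.01 or 1 nM, TCDF (2,3,7,8-tetrachlorodibenzofuran) at 0.1 or 10 nM, PeCDF (2,3,4,7,8-pentachlorodibenzofuran) at 0.02 or 2 nM, or no addition. The common control was the vehicle, 0.1% DMSO, which all compound-treated dishes also received and the untreated dishes did not. RNA of 3 dishes of a rat was pooled, and each of the 7 test groups was hybridised on 4 Agilent 2-colour arrays, 2 rats in 2 dye orientations, always against DMSO RNA of the same rat. The groups therefore share their DMSO control, of the same 2 rats, though the labels do not say whether 1 RNA preparation of a rat served all its arrays. With 2 animals, the number of rats limits the precision of every value. Each array gives 2 quantities per gene used here, the log2 ratio of test RNA over DMSO RNA and the normalised signal of each channel in linear intensity units. The signal is relative, and levels are not compared between genes.

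All 3 compounds are agonists of the aryl hydrocarbon receptor, a ligand-activated transcription factor that pairs with ARNT and binds DNA at a core motif in genes such as Cyp1a1. Besides inducing drug-metabolising enzymes, activation of this receptor in liver is known to lower many transcripts. Tmem255b encodes a multi-pass membrane protein whose function is little known. Zfp354a encodes a zinc finger protein first described in rat kidney as Kid-1, with a KRAB domain. KRAB domains repress transcription through the corepressor TRIM28. Anxa13 encodes an annexin, a protein that binds membrane phospholipids in the presence of calcium, best known from intestinal and kidney epithelium. Fam117b encodes a protein of largely unknown function that in human cancer cells has been linked to KEAP1 and NRF2, a sensor and a transcription factor of the oxidative stress response.

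The promoter windows show which letters lie next to genes that were lower together. The supplied RefSeq table for build GRCr8 held a window of 250 bases before to 50 bases after the start for 3 of the 4 genes, not for Anxa13. The windows are chr16:82808880-82809179 on the minus strand for Tmem255b, chr10:35897013-35897312 on the plus strand for Zfp354a and chr9:68834104-68834403 on the plus strand for Fam117b. They are written 5′ to 3′ along the gene, and capitals mark the receptor's core motif GCGTG or its reverse complement.
Tmem255b: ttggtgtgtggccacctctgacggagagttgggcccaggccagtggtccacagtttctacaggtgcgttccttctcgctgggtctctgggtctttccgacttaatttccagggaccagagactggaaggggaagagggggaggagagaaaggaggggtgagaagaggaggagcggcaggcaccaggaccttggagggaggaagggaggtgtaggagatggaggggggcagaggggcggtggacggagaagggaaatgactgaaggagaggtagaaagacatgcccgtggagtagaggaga
Zfp354a: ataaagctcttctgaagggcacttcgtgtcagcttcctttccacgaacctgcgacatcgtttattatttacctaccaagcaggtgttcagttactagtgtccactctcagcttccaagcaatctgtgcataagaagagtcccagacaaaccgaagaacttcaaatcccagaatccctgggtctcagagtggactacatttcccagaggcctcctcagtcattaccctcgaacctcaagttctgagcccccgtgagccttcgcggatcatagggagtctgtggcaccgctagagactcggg
Fam117b: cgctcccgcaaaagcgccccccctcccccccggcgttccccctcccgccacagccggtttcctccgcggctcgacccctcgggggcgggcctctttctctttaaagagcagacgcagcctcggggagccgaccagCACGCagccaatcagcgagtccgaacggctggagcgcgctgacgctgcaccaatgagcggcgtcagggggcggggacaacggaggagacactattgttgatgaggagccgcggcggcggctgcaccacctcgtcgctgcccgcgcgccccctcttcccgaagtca
Searched on both strands, GCGTG was found in 1 of these 3 windows, that of Fam117b, at bases 136 to 140 on the opposite strand and 115 bases before the start. The same letters occurred in 29.7% of the 33465 promoter windows of that length in the table. The longer form TNGCGTG, which contains the shorter one, was in none of the 3 windows and in 4.89% of all windows. G and C made up 59.3% of the Tmem255b window, 50.7% of the Zfp354a window and 70.3% of the Fam117b window, against a median of 51.7% over all windows. A match is only a match of letters, and its absence covers this window alone.

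All 4 probes were single spots, were well above background in both channels on all 28 arrays, and were saturated on none. All 4 passed the filter on dim probes, also in its stricter form that asks for signal above background in both channels of every array. As a check of the treatment, Cyp1b1, a known target of the receptor, was higher at the upper doses by 3.93 ± 0.15 (log2 ratio ± SE, n = 2 rats) with TCDD, 2.07 ± 0.15 with TCDF and 2.78 ± 0.15 with PeCDF. Its DMSO signal was well above background on 24 of 28 arrays. Here and below each SE comes from 1 fit of all 7 groups, which pools the spread between the 2 rats over the groups. A gene with values of both rats in a group therefore has the same SE there as in its other such groups, whatever the spread of its rats. Nqo1, a quinone reductase and a further target, had log2 ratios of 1.54 ± 0.18, 1.44 ± 0.18 and 1.61 ± 0.18 at those doses. Cyp1a1 had ratios of 1.70, 1.39 ± 0.11 and 1.61 ± 0.11, the first not from both rats because a spot was dropped. Its test-channel signal was saturated on 20 of 28 arrays, so the size of its ratios is not read further.

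At the upper doses the 4 transcripts were lower than in DMSO on every array. The plot of log2 ratios by array shows all 7 groups side by side.

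**Figure D1:**
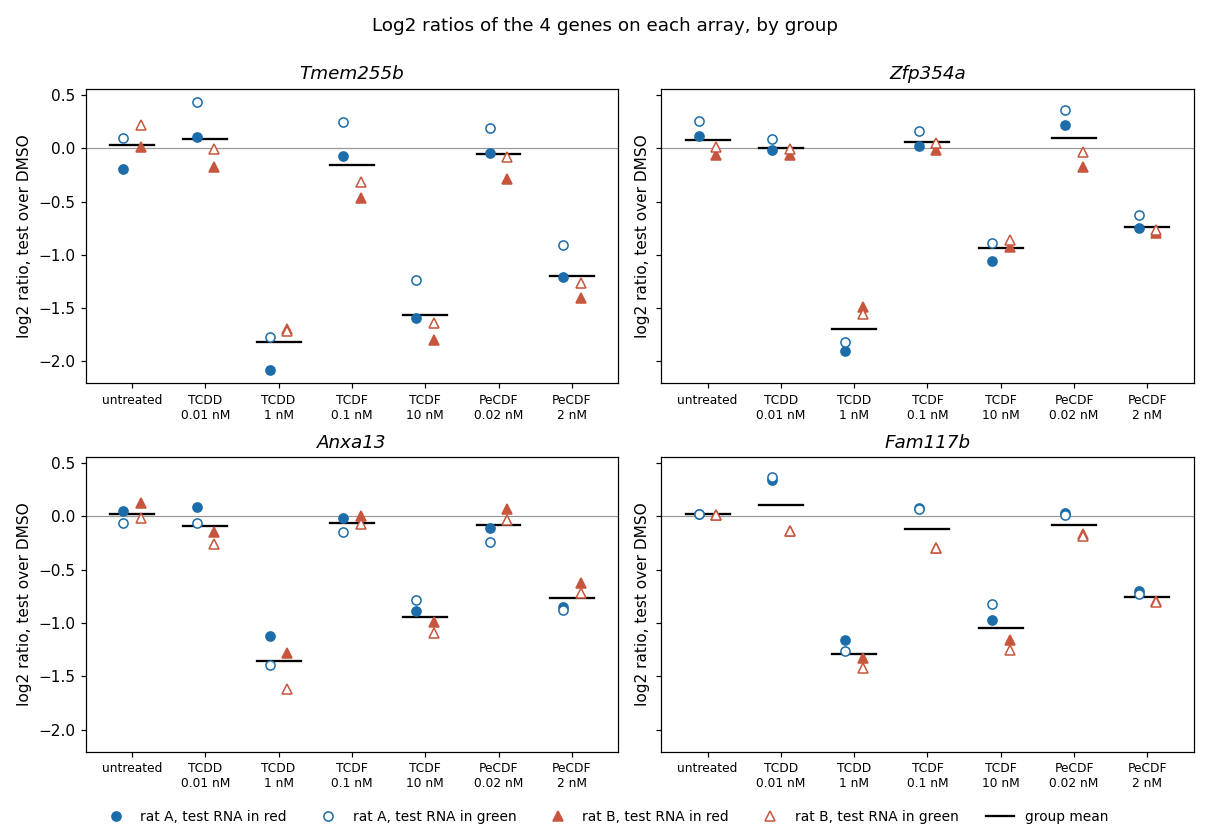
Log2 ratio of test RNA over DMSO RNA (y axis) on each of the 4 arrays of a group (x axis), for each gene; circles are rat A, triangles rat B, filled symbols test RNA in red, open symbols test RNA in green, and the bar is the group mean. At TCDD 1 nM, TCDF 10 nM and PeCDF 2 nM every point lies below every point of the lower doses and of untreated cells, and the highest of them over all 4 genes is -0.63.

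Tmem255b had the lowest ratios. At TCDD 1 nM its signal was 286, 321, 213 and 213 (rat A, A, B, B), against 1208, 1094, 689 and 697 in DMSO on the same arrays. The 4 log2 ratios were -2.08, -1.77, -1.70 and -1.71, with a mean of -1.81 ± 0.13 (SE, n = 2 rats), or 28.4% of the DMSO level. Every treated signal lay below every DMSO signal of either rat. At TCDF 10 nM the signal was 397, 453, 222 and 242, against 1195, 1066, 774 and 756 in DMSO, with ratios of -1.59, -1.23, -1.80 and -1.64. The mean of -1.57 ± 0.13 (SE, n = 2 rats) is 33.8% of DMSO. At PeCDF 2 nM the signal was 436, 598, 290 and 331, against 1004, 1120, 768 and 794 in DMSO, and the mean ratio of -1.19 ± 0.13 is 43.7% of DMSO. The doses differ between the compounds, so these values stand side by side and are not compared as potencies. Among the 34849 genes tested, ordered from the lowest ratio, Tmem255b was number 5 at TCDD 1 nM, number 1 at TCDF 10 nM and number 13 at PeCDF 2 nM. At these doses Zfp354a was number 7, 16 and 51, Anxa13 number 30, 15 and 44, and Fam117b number 32, 9 and 47. The genes were picked for low ratios at these doses, so low ranks follow from the choice. The size of the Tmem255b decrease depended on the background correction. With none, its log2 ratio at TCDD 1 nM was -1.14, a level 1.60 times higher than with the correction, while Zfp354a was then at -1.45.

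Zfp354a, the KRAB zinc finger gene, was lower at each upper dose in both rats. At TCDD 1 nM its signal was 1219, 1272, 817 and 999 (rat A, A, B, B), against 4560, 4473, 2301 and 2930 in DMSO. The ratios of -1.90, -1.81, -1.49 and -1.55 averaged -1.69 ± 0.09 (SE, n = 2 rats), or 31.0% of DMSO. The rat means, -1.86 in rat A and -1.52 in rat B, lay farther apart than this pooled SE conveys. The treated signal of either rat was below the DMSO signal of both. At TCDF 10 nM the signal was 2167, 2126, 1184 and 1223, against 4511, 3930, 2254 and 2223 in DMSO, with a mean ratio of -0.93 ± 0.09, or 52.4% of DMSO. At PeCDF 2 nM it was 3153, 2559, 1330 and 1240, against 5304, 3959, 2313 and 2106 in DMSO, with a mean ratio of -0.74 ± 0.09, or 60.1% of DMSO. Within each rat the treated and DMSO signals did not overlap at any of these doses.

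Anxa13, the annexin, had rat means of -1.26 in rat A and -1.45 in rat B at TCDD 1 nM. Its signal there was 274, 253, 296 and 316 (rat A, A, B, B), against 597, 665, 720 and 968 in DMSO. The ratios of -1.12, -1.40, -1.28 and -1.62 averaged -1.35 ± 0.08 (SE, n = 2 rats), or 39.1% of DMSO. The dye orientations differed more than the rats did: ratios with test RNA in red averaged -1.20 and those in green -1.51. At TCDF 10 nM the signal was 378, 303, 396 and 376, against 699, 521, 788 and 804 in DMSO, with a mean ratio of -0.94 ± 0.08, or 52.1% of DMSO. At PeCDF 2 nM it was 473, 365, 525 and 482, against 851, 671, 811 and 792 in DMSO, with a mean ratio of -0.77 ± 0.08, or 58.7% of DMSO. Treated and DMSO signals were apart within each rat at all 3 doses. Without background correction the log2 ratios of Anxa13 were nearer 0, at -0.83 with TCDD, -0.72 with TCDF and -0.55 with PeCDF. With TCDD 1 nM that is a level 1.44 times higher than with the correction.

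Fam117b had ratios that agreed closely between dye orientations. With TCDD 1 nM its signal was 1000, 946, 358 and 416 (rat A, A, B, B), against 2230, 2266, 897 and 1114 in DMSO. The ratios of -1.16, -1.26, -1.32 and -1.42 averaged -1.29 ± 0.12 (SE, n = 2 rats), or 40.9% of DMSO. The treated signal of rat A overlapped the DMSO signal of rat B, while within each rat, which is what an array compares, treated and DMSO signals were apart. At TCDF 10 nM the signal was 1367, 1326, 464 and 442, against 2676, 2341, 1036 and 1051 in DMSO, with a mean ratio of -1.05 ± 0.12, or 48.3% of DMSO. At PeCDF 2 nM it was 1808, 1510, 638 and 584, against 2944, 2499, 1109 and 1018 in DMSO, with a mean ratio of -0.76 ± 0.12, or 59.1% of DMSO. Without background correction the log2 ratio of Fam117b at TCDD 1 nM was -0.96. A further probe, described as similar to ALS2CR13, an older name of Fam117b, was not counted as Fam117b. Its log2 ratios were 0.02 at TCDD 1 nM, -0.12 at TCDF 10 nM and -0.20 at PeCDF 2 nM, and which transcript it reads was not tested. In bulk RNA of dishes, fewer cells of a type and less RNA per cell cannot be told apart for any of the 4 genes.

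**Figure D2:**
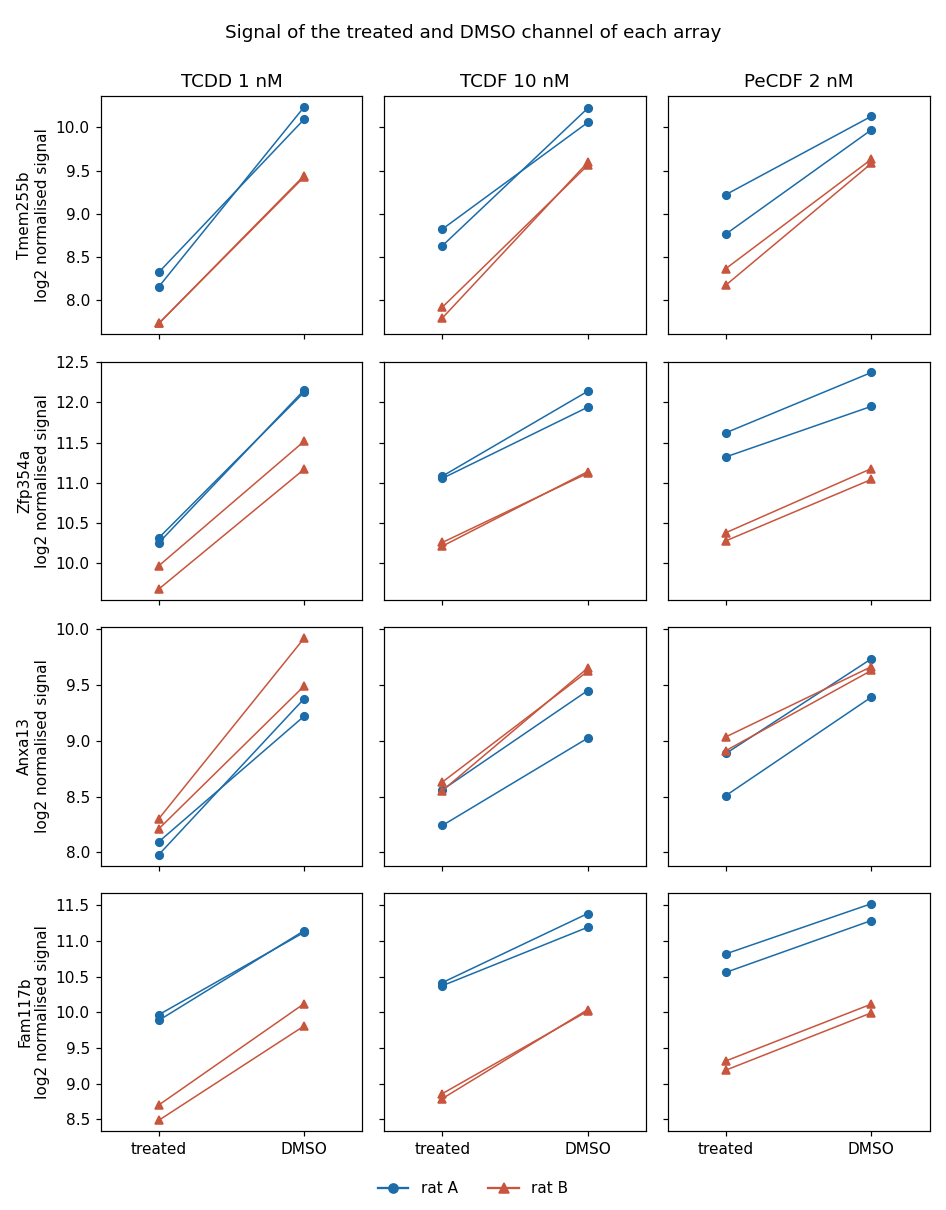
Log2 normalised signal (y axis) of the treated channel (left) and the DMSO channel (right) of each array at the 3 upper doses (columns) for each gene (rows); a line joins the 2 channels of an array, with circles for rat A and triangles for rat B. Every line is higher at DMSO, and for Tmem255b, Zfp354a and Fam117b the lines of rat A lie above those of rat B.

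By group mean, all 4 genes had the same order of log2 ratios at the low end: TCDD 1 nM lowest, then TCDF 10 nM, then PeCDF 2 nM, then the other 4 groups around 0. For Tmem255b TCDF 10 nM came lowest without background correction, at -1.16 against -1.14 at TCDD 1 nM, and in rat B alone, at -1.72 against -1.70. For Anxa13 in rat A alone PeCDF 2 nM lay below TCDF 10 nM, at -0.86 and -0.84. Neighbouring groups in this order were not always apart. For Tmem255b the array ratios of TCDD 1 nM and TCDF 10 nM overlapped, and so did those of TCDF 10 nM and PeCDF 2 nM. For Zfp354a none of the 3 overlapped, with -1.49 as the highest at TCDD 1 nM and -1.06 as the lowest at TCDF 10 nM. For Anxa13 TCDD 1 nM and TCDF 10 nM were just apart, at -1.12 and -1.10, and TCDF 10 nM and PeCDF 2 nM overlapped. For Fam117b TCDD 1 nM and TCDF 10 nM overlapped, and TCDF 10 nM and PeCDF 2 nM were just apart. The scans of TCDD were read on other days than those of TCDF and PeCDF, so between TCDD and these 2 compound, dose and reading day cannot be told apart. TCDF and PeCDF were read on the same days, and between them compound and dose cannot be told apart.

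No gene of the set passed the test in untreated cells or at a lower dose. At TCDD 0.01 nM 0 of 4 were called, where limma called 0.451% of all genes tested at a Benjamini-Hochberg adjusted p under 0.05. At TCDF 0.1 nM 0 of 4 were called, against 0.00287% of all genes. At PeCDF 0.02 nM 0 of 4 were called, against 0% of all genes, where 2652 genes had an unadjusted limma p under 0.05 and 2 genes were called without background correction. In untreated cells 0 of 4 were called, against 0.043% of all genes. With such backgrounds a count of 0 of 4 is near what all genes show. Over the 3 upper doses limma called 5.92% of genes as lower at TCDD 1 nM, 1.26% at TCDF 10 nM and 2.67% at PeCDF 2 nM, and since the 4 genes were chosen on these contrasts nothing is read from their own count there.

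At the lower doses the rats moved apart more than the group means did for Fam117b. For Fam117b at TCDD 0.01 nM the 4 log2 ratios were 0.35, 0.37, -0.14 and -0.14 (rat A, A, B, B), with a mean of 0.11 ± 0.12 (SE, n = 2 rats) and a limma adjusted p of 0.897. The dye-swapped arrays of a rat agreed closely while the rats lay on opposite sides of 0. At TCDF 0.1 nM the ratios of Fam117b were 0.08, 0.07, -0.30 and -0.30, with a mean of -0.11 ± 0.12 and a limma adjusted p of 0.957. At PeCDF 0.02 nM they were 0.03, 0.01, -0.16 and -0.19, with a mean of -0.08 ± 0.12 and a limma adjusted p of 0.968. In each of these 3 groups both arrays of rat A were above 0 and both of rat B below.

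Tmem255b showed the same sides by rat mean. At TCDD 0.01 nM its ratios were 0.10, 0.43, -0.18 and -0.01, with a mean of 0.09 ± 0.13 (limma adjusted p = 0.950). At TCDF 0.1 nM they were -0.07, 0.24, -0.47 and -0.32, with a mean of -0.15 ± 0.13 (limma adjusted p = 0.917). Rat B alone averaged -0.39 there and rat A 0.08. At PeCDF 0.02 nM they were -0.05, 0.18, -0.29 and -0.08, with a mean of -0.06 ± 0.13 (limma adjusted p = 0.989). The 95% interval of the TCDF 0.1 nM mean reached from -0.45 to 0.14, so a small decrease there was not detectable with 2 rats.

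Zfp354a and Anxa13 were not called at a lower dose either. Zfp354a had ratios of -0.02, 0.08, -0.06 and -0.00 at TCDD 0.01 nM, 0.02, 0.16, -0.01 and 0.05 at TCDF 0.1 nM, and 0.22, 0.36, -0.18 and -0.03 at PeCDF 0.02 nM. The limma adjusted p-values of its means were 0.999, 0.993 and 0.923. Anxa13 had ratios of 0.09, -0.06, -0.15 and -0.26 at TCDD 0.01 nM, with a mean of -0.09 ± 0.08 and a limma adjusted p of 0.803. At TCDF 0.1 nM its ratios were -0.02, -0.14, 0.00 and -0.07, and at PeCDF 0.02 nM -0.11, -0.24, 0.07 and -0.03. Over the 3 lower doses, the rat means of a gene lay on opposite sides of 0 in 10 of 12 cases. For Anxa13 at PeCDF 0.02 nM the sides were turned, with rat A at -0.18 and rat B at 0.02. The cases share the 2 rats and their DMSO control, and means near 0 often differ in sign. The share over all genes was not counted, so nothing is read from this count.

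Leaving out the vehicle made no difference that the test found. Untreated over DMSO, Tmem255b had ratios of -0.19, 0.10, 0.01 and 0.22, Zfp354a 0.11, 0.25, -0.06 and 0.01, and Anxa13 0.05, -0.06, 0.12 and -0.01. Fam117b was at 0.02 on all 4 arrays. The limma adjusted p-values of the 4 means lay between 0.880 and 0.989, and the 95% intervals reached from -0.26 to 0.33 for Tmem255b, from -0.13 to 0.29 for Zfp354a, from -0.14 to 0.19 for Anxa13 and from -0.25 to 0.28 for Fam117b.

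The 2 rats differed in how much of 3 of the transcripts they had without any compound. In the DMSO channel Fam117b had a median signal of 2564 (2230 to 3411) over the 14 arrays of rat A and of 1026 (868 to 1115) over the 14 arrays of rat B, a ratio of 2.50. Zfp354a had 4535 (3930 to 5635) in rat A and 2277 (1966 to 2930) in rat B, a ratio of 1.99. Tmem255b had 1201 (1004 to 1414) in rat A and 764 (676 to 819) in rat B, a ratio of 1.57. For these 3 genes the ranges of the rats did not overlap. Anxa13 had 722 (521 to 949) in rat A and 808 (720 to 968) in rat B, a ratio of 0.894 with overlapping ranges.

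Over all 34849 genes tested, 0.0803% had DMSO medians at least as far apart as Fam117b, 0.27% as Zfp354a, 1.14% as Tmem255b and 23.2% as Anxa13. The order of the rats held in the test channel. There both arrays of rat A lay above both of rat B in 7 of 7 groups for each of Tmem255b, Zfp354a and Fam117b. The share over all genes was not counted for this, so nothing is read from the count. At TCDD 1 nM the mean signal of Fam117b was 973 in rat A and 387 in rat B, that of Zfp354a 1245 and 908, and that of Tmem255b 303 and 213. In DMSO on the same arrays these genes had 2248 and 1006, 4516 and 2615, and 1151 and 693. This is 1 rat against 1 rat, and the 14 DMSO values of a rat share their animal and possibly their RNA preparation, so no test was made.

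**Figure D3:**
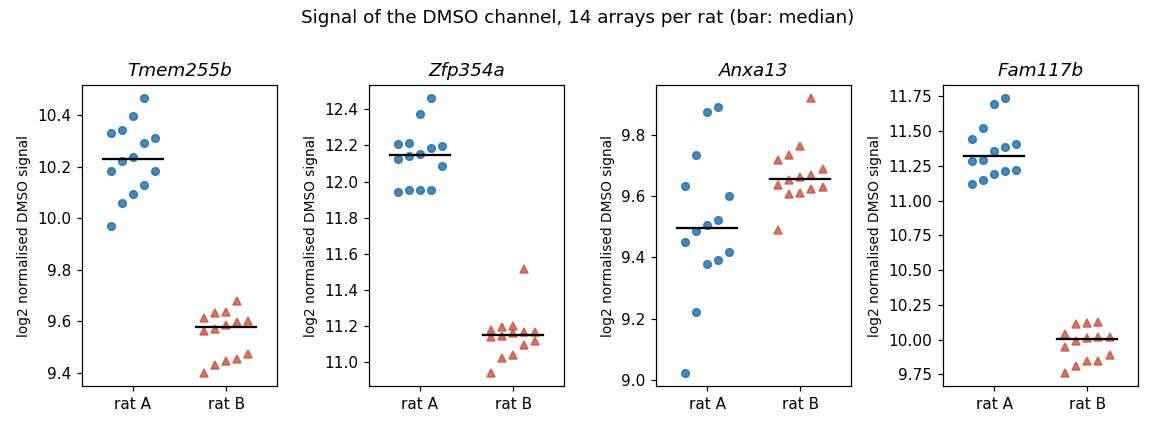
Log2 normalised signal of the DMSO channel (y axis) for each gene on the 14 arrays of rat A (circles) and the 14 arrays of rat B (triangles), with the median as a bar. The points of the rats are apart for Tmem255b, Zfp354a and Fam117b and overlap for Anxa13.

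Ratios differed between the dye orientations, and not alike in all 4 genes. The orientations were read on different days, so orientation and reading day cannot be told apart. Ratios of Tmem255b were lower with test RNA in red than in green in 7 of 7 groups, by 0.15 to 0.26 on the log2 scale. Ratios of Zfp354a were lower in red in 7 of 7 groups too, by 0.01 to 0.14. Those of Anxa13 were higher in red in 6 of 7 groups, by up to 0.31, and those of Fam117b differed by at most 0.10. The groups share the rats and their DMSO control, and the share over all genes was not counted, so nothing is read from these counts. Every rat-level value averages both orientations, and each orientation alone was below 0 at all 3 upper doses for all 4 genes.

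The closest relatives on the array had ratios near 0. Tmem255a, the paralog of Tmem255b, had log2 ratios of -0.02 ± 0.03 at TCDD 1 nM, -0.06 ± 0.03 at TCDF 10 nM and -0.02 ± 0.03 at PeCDF 2 nM (SE, n = 2 rats), with limma adjusted p-values of 0.797, 0.606 and 0.907. Zfp354c, a further KRAB zinc finger gene of that family, had 0.00 ± 0.06, 0.01 ± 0.06 and -0.01 ± 0.06, with limma adjusted p-values of 0.994, 0.996 and 0.981. Zfp354b and Fam117a were not tested.

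Of the other annexins, 9 of 11 were tested, and 2 rose and 1 fell at TCDD 1 nM, where limma called 4.63% of all genes as higher and 5.92% as lower. Anxa8, an annexin of epithelia, fell by 1.15 ± 0.13 on the log2 scale (limma adjusted p = 0.000416) and was the only annexin besides Anxa13 with a ratio below -1 at TCDD 1 nM. Anxa3 rose by 0.48 ± 0.08 (limma adjusted p = 0.00453) and Anxa7 by 0.42 ± 0.06 (limma adjusted p = 0.00159). At TCDF 10 nM 2 of 9 fell, beside 1.26% of all genes. These were Anxa8, by 0.64 ± 0.13 (limma adjusted p = 0.0363), and Anxa2, which links membranes to actin, by 0.33 ± 0.06 (limma adjusted p = 0.0196). At PeCDF 2 nM 1 of 9 fell, beside 2.67% of all genes. It was Anxa2, by 0.24 ± 0.06 (limma adjusted p = 0.0497). The median log2 ratio of the 9 annexins was -0.03 at TCDD 1 nM, beside -0.00 over all genes tested, and no annexin was called in untreated cells or at a lower dose.

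**Figure D4:**
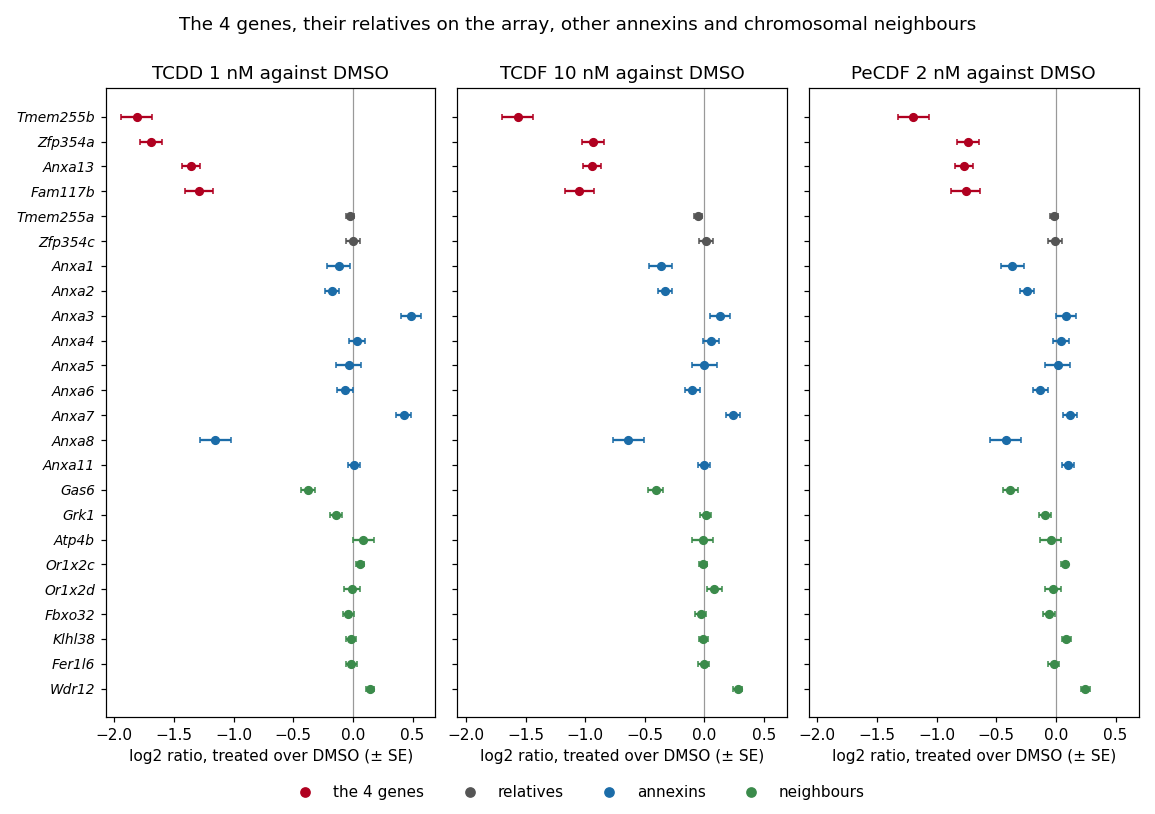
Log2 ratio of treated over DMSO RNA with its standard error (x axis, n = 2 rats) at the 3 upper doses for the 4 genes (top), their relatives on the array, other annexins and chromosomal neighbours (rows). The 4 genes lie between -1.81 and -0.74, and of the other genes shown Anxa8 comes nearest, at -1.15 with TCDD 1 nM.

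Genes of the lists of KRAB corepressors, annexin partners, and KEAP1 and NRF2 mostly did not pass the test. At TCDD 1 nM limma called 4.63% of all genes as higher and 5.92% as lower. Of 5 tested genes of the KRAB corepressor complex, 1 rose and 0 fell there, and 0 were called at TCDF 10 nM and at PeCDF 2 nM. That gene was Cbx5, which encodes the heterochromatin protein HP1 alpha, at 0.37 ± 0.08 (limma adjusted p = 0.0116). Trim28, the corepressor itself, was at 0.12, -0.02 and 0.01 at the 3 upper doses and was not called. Of 4 tested partners of annexins in general, not of Anxa13 in particular, 1 fell at TCDD 1 nM. It was the calcium-binding S100a4, which fell by 0.19 ± 0.04 (limma adjusted p = 0.0118), and 0 were called at the other upper doses. Of 5 KEAP1 and NRF2 genes, 1 rose at each upper dose and 0 fell, where 1.11% of all genes were called as higher at TCDF 10 nM and 1.72% at PeCDF 2 nM. That gene was Nfe2l2, which encodes NRF2, with log2 ratios of 1.25 ± 0.09, 0.53 ± 0.09 and 0.62 ± 0.09 and limma adjusted p-values of 3.21e-05, 0.0183 and 0.00716.

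The nearest protein-coding genes on each side in the RefSeq table included called genes beside Tmem255b and Fam117b, but not all could be tested. Of 4 neighbours per gene, 3 were tested for Tmem255b, 2 for Zfp354a, 3 for Anxa13 and 1 for Fam117b. Over all genes tested limma called 5.92%, 1.26% and 2.67% as lower and 4.63%, 1.11% and 1.72% as higher at the 3 upper doses. Next to Tmem255b, Gas6, which encodes a growth-arrest ligand of the TAM receptors, fell at all 3 upper doses, with log2 ratios of -0.38 ± 0.06, -0.41 ± 0.06 and -0.38 ± 0.06 and limma adjusted p-values of 0.0028, 0.00825 and 0.00822. Its other tested neighbours Grk1 and Atp4b were not called, at -0.14 and 0.09 with TCDD 1 nM. Next to Zfp354a, the olfactory receptor genes Or1x2c and Or1x2d, both on the same side, were at 0.06 and -0.01 with TCDD 1 nM and were not called. Around Anxa13, Fbxo32, Klhl38 and Fer1l6 lay between -0.04 and -0.01 with TCDD 1 nM and were not called. Near Fam117b, Wdr12, which encodes a ribosome biogenesis factor, rose at all 3 upper doses, with log2 ratios of 0.14 ± 0.04, 0.28 ± 0.04 and 0.25 ± 0.04 and limma adjusted p-values of 0.0303, 0.00495 and 0.0061.

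Across the 14 rat-level ratios, the 4 genes resembled each other with Pearson's r between 0.93 and 0.99 per pair. Anxa13 and Fam117b were closest in size, with a root mean square difference of 0.16 on the log2 scale, and Tmem255b and Anxa13 farthest, with 0.39. These points share the DMSO control of each rat, and the 4 genes were chosen for low ratios in 6 of the 14, so r is a description only. Nearest genes outside the set were sought only among genes with a symbol, 15272 of the 34849 tested. Among them the gene nearest to Tmem255b was Onecut1, a liver transcription factor (difference 0.29, r = 0.94), followed by Slc2a5, a fructose transporter, and Emp1, a membrane protein. Nearest to Zfp354a was Pfkfb1, the liver enzyme that sets fructose 2,6-bisphosphate (difference 0.15, r = 0.98), followed by Slc37a4, the glucose 6-phosphate transporter. Nearest to Anxa13 was Slc37a4 (difference 0.12, r = 0.98), followed by Zap70, a kinase known from T cells, and Gckr, the glucokinase regulator. Nearest to Fam117b was Zap70 (difference 0.14, r = 0.98), followed by Slc37a4 and Slc25a47, a mitochondrial carrier of liver. Pfkfb1 had log2 ratios of -1.63, -0.94 and -0.74 at the 3 upper doses, beside -1.69, -0.93 and -0.74 for Zfp354a.

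The cells carried the RNA of hepatocytes, with all 10 hepatocyte markers well above background in DMSO on all arrays. At TCDD 1 nM Apob rose and Asgr1 and Cps1 fell among them, and 0 were called at the other upper doses. For these and the following counts, limma called 4.63% of all genes as higher and 5.92% as lower at TCDD 1 nM, 1.11% and 1.26% at TCDF 10 nM, and 1.72% and 2.67% at PeCDF 2 nM. Of 14 cholangiocyte markers 1 fell at TCDD 1 nM, Prom1, and 0 were called at the other upper doses. In DMSO 11 of the 14 were well above background on all arrays. Krt7 and Onecut2 reached that on 14 of 28 arrays. The summed signal of the 14, in which bright probes weigh most, was 2541 to 2707 at TCDD 1 nM, against 2724 to 3058 in DMSO. Anxa13 was at 39.1% of DMSO there with background correction. Of 12 Kupffer cell and leukocyte markers, all detected in DMSO on all arrays, 5 fell (Cd163, Vsig4, C1qc, Lyz2 and Cybb) and 1 rose (Cd14) at TCDD 1 nM, a larger share of lower calls than over all genes. Only Cd14 was called among them at TCDF 10 nM and at PeCDF 2 nM, and it was higher. Their summed signal at TCDD 1 nM was 10601 to 15987, against 11572 to 17242 in DMSO. Of 10 stellate cell and fibroblast markers, all detected in DMSO on all arrays, 3 fell at TCDD 1 nM, Vim, Lox and Tagln, also a larger share than over all genes. Vim fell at TCDF 10 nM, and at PeCDF 2 nM Col1a1 fell and Col3a1 rose. Their summed signal at TCDD 1 nM was 2813 to 3066, against 3406 to 3881 in DMSO. Of 7 endothelial markers, 5 of them detected in DMSO on all arrays and Pecam1 and Tek on 15 of 28, 0 were called at the upper doses. Their summed signal at TCDD 1 nM was 1205 to 1944, against 1145 to 1917 in DMSO. The part of these cells in the ratios of the 4 genes was not tested.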

How the data were processed

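The authors' scanner files hold the mean spot signal and median local background of each dye in units of intensity, per the file headers, and a log10 ratio of red over green. The deposited series table holds this log10 ratio turned to test RNA over DMSO RNA, within 4.995e-06 of the turned scanner value. Per the file headers, Feature Extraction (version 7.5.1 with the prefix A, and 9.1 per the submitters' processing notes) read the arrays on 4 days. Days whose arrays cover the same groups were counted here as 1 session, a grouping that the headers do not give. This made 2 sessions, untreated and TCDD in session 1, TCDF and PeCDF in session 2. Session means this reading, not RNA extraction, and within a session orientation and day coincide.

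From the intensities, R 4.3.3 and limma 3.58.1 gave log2 ratios: normexp background correction (offset 50), loess in which the 2256 control spots had weight 0, and 1067 marked spots (0.0921%) dropped. Channel levels were scaled between arrays by Aquantile and are open to dye bias on a single array. The dye-swapped arrays of a rat were averaged, so 14 ratios entered 1 fit of 7 group means with empirical Bayes (7 residual degrees of freedom). Every SE and interval given comes from this fit, with the variance of a gene pooled over the groups. Probes well above background on all 4 test channels of a group or on 14 of 28 DMSO channels were kept (37824 of 41012), and the brightest probe per gene name was tested, 34849 in all. Genes were called at an adjusted p under 0.05 over all genes. Symbols came from the RefSeq table, and 18538 probes had one. The fit was tested on simulated data.

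Rats pair the samples, since every group was made from the same 2 animals per the labels. The deviations between rats correlated over 21 pairs of groups from -0.39 to 0.56, with a median of 0.13. Alternatives were the authors' log ratio, no background correction, other filters, marked spots kept, every probe on its own, the animal as a block, array-level ratios with a dye term, 1 session alone and leaving out a rat. The 4 genes and all lists were chosen with earlier results of these data known. Named were all tested genes of lists of up to 3, from longer lists those called at an upper dose (up to 4), Trim28 and the called cell type markers, chosen after their values were seen, 2 neighbours a side and the 3 nearest genes by root mean square difference, of which 1 is not reported here.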

Additional observations from a re-analysis of the deposited data

Results flagged for a closer look

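In Fam117b all 4 untreated arrays lay above 0 and all 4 arrays of each upper dose below 0. The untreated log2 ratio exceeded that at TCDD 1 nM by 1.31, that at TCDF 10 nM by 1.07 and that at PeCDF 2 nM by 0.776. These differences were not tested, and the untreated ratios were only 0.02 above 0. In the other 3 genes at least 1 untreated array was below 0. No array stood apart from the other 3 of its group for any of the 4 genes.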

How the results depend on the processing

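At the upper doses all 4 genes stayed below 0 under each of 9 alternatives with both rats and without either rat. Only the authors' log ratio and no background correction changed these ratios, and the other alternatives with both rats returned the main values. So 93 values with both rats moved by less than 1 SD of the rats, most of them because they did not move at all. The 15 that moved by more went downwards with the authors' log ratio and upwards without background correction. No gene was called at a lower dose or untreated under an alternative, with limma adjusted p-values of 0.456 to 1.00. With 1 rat left out of every group no residual degrees of freedom remain among animals, so those values have no test. Leaving out 1 rat of 1 group, chosen after seeing the data and assuming that the lone rat varies like the other groups, turned 13 of the small lower-dose and untreated ratios, as the rats' own ranges show: untreated Tmem255b -0.049 to 0.12, Zfp354a -0.024 to 0.18 and Anxa13 -0.0055 to 0.055, at TCDD 0.01 nM Tmem255b -0.10 to 0.27, Zfp354a -0.034 to 0.032, Anxa13 -0.20 to 0.014 and Fam117b -0.14 to 0.36, at TCDF 0.1 nM Tmem255b -0.39 to 0.084 and Fam117b -0.30 to 0.073, at PeCDF 0.02 nM Tmem255b -0.19 to 0.070, Zfp354a -0.10 to 0.29, Anxa13 -0.18 to 0.021 and Fam117b -0.17 to 0.021. Genes called moved more. Without 1 rat they were 474 to 767 untreated (15 with both), 245 to 601 at TCDD 0.01 nM (157), 1595 to 3886 at TCDD 1 nM (3677), 34 to 42 at TCDF 0.1 nM (1), 64 to 260 at TCDF 10 nM (823), 0 to 157 at PeCDF 0.02 nM (0) and 136 to 658 at PeCDF 2 nM (1530). With the animal as a replicate block they were 26 untreated and 2 at TCDF 0.1 nM, and the block changed no call of the 4 genes. The authors' log ratio gave 184 untreated, 0 at TCDF 0.1 nM, 421 at TCDF 10 nM (111 higher and 310 lower, against 385 and 438) and 736 at PeCDF 2 nM. No background correction gave 2 at TCDF 0.1 nM and 2 at PeCDF 0.02 nM. No filter gave 28 untreated and 0 at TCDF 0.1 nM, the stricter filter 1 untreated and 67 at TCDD 0.01 nM, and every probe on its own 0 at TCDF 0.1 nM. Array-level ratios with a dye term gave 277 untreated, 714 at TCDD 0.01 nM, 6437 at TCDD 1 nM, 622 at TCDF 0.1 nM, 2804 at TCDF 10 nM, 602 at PeCDF 0.02 nM and 4495 at PeCDF 2 nM. The groups of 1 session alone gave 0 untreated, 14 at TCDD 0.01 nM, 0 at TCDF 0.1 nM and 471 at TCDF 10 nM. The causes were not tested. On the given strand alone GCGTG was in 18.2% and TNGCGTG in 2.55% of promoter windows.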

Other observations

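A further probe, described in the array design as similar to the human protein ALS2CR13, an older name of Fam117b, carries a consensus name (TC474861) and was not counted as Fam117b. Its log2 ratio was 0.02 at TCDD 1 nM, -0.12 at TCDF 10 nM and -0.20 at PeCDF 2 nM, where the Fam117b probe was at -1.29, -1.05 and -0.76. It was at 0.21 in untreated cells, and the 2 rats had 0.28 and 0.14. Which transcript this probe reads was not tested.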
